A study of Mus musculus with 5 samples.

Results

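The response of C/EBPα and C/EBPβ knockout granulosa cells was followed from 4 h to 8 h after the ovulatory hormone, by setting the knockout array at 8 h against the knockout array at 4 h. These are 2 of the 5 arrays of the series, chosen by genotype and time from their titles, with 1 array per group. Granulosa cells are the somatic cells that line the ovarian follicle and surround the oocyte. Both groups carried the genotype that the labels write as CEBPα/β fl/fl fl/fl with Cyp19-cre, in which a recombinase under the Cyp19 (aromatase) promoter, active in granulosa cells, acts on floxed alleles of both genes. Mice of both groups were 23 days old and received equine chorionic gonadotropin (eCG) for 48 h before human chorionic gonadotropin (hCG). The other arrays were wild type at 8 h after hCG, also at 23 days, and the knockout and wild type at 24 h after hCG, at 24 days, all after the same eCG. They are given for orientation, since no wild-type array at 4 h was used here. The number of mice behind each array and the deleted part of each gene are not given in the sources used here.

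In this schedule eCG drives follicle growth and hCG acts on the luteinizing hormone receptor in place of the natural surge. The surge raises cyclic AMP, which switches on EGF-like ligands, prostaglandin synthesis and the progesterone receptor, and the EGF receptor then activates the kinases ERK1 and ERK2. In granulosa cells these kinases act in part through C/EBPα and C/EBPβ, a pair of basic leucine zipper transcription factors. The comparison asks which transcripts differed between the early and the later part of this response in cells of this genotype.

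Expression was measured on Affymetrix 3' arrays of 45101 probe sets. Intensities below are quantile-normalized over all 5 arrays, so they compare 1 probe set between arrays and not 1 gene with another. A gene is represented by its brightest probe set on average, and 13747 of 18194 genes reached a floor of 21.0, the 40th percentile of all normalized values, on at least 1 of both knockout arrays. A gene is called higher or lower at 8 h when the difference was at least 2-fold and all its probe sets differed in the same direction. For a gene whose lower value was below the floor, the floor took its place and the fold is written as "at least". There are no replicates, so no test was possible, and a difference between both arrays cannot be told apart from a difference between both times.

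The knockout array at 4 h stood apart from the others before any gene was compared. The median of its deposited intensities was 54, where the other 4 arrays had medians of 31 or 32. The 3' to 5' signal ratio of the Actb control was 3.87 on that array and 1.36 to 1.5 elsewhere, and that of Gapdh was 3.86 against 0.97 to 1.05. Probe sets of the same gene also scattered more, with an SD of 0.883 on the log2 scale per probe set, against 0.397 for the knockout at 24 h against 8 h and 0.283 for the knockout against wild type at 8 h. Of 2304 genes with 2 or more probe sets whose representative passed 2-fold, 57.3% agreed in direction over all probe sets, against 77.4% and 78.4% in those other comparisons. The share of each difference that goes with this array's signal along the transcript was not tested.

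**Figure D1:**
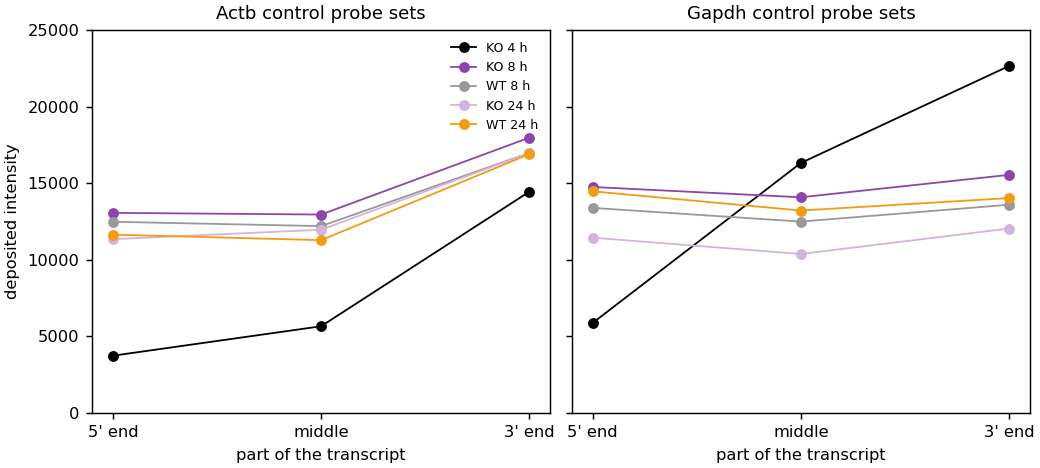
Deposited intensity (linear scale) of the Actb and Gapdh control probe sets at the 5' end, middle and 3' end of each transcript, with 1 line per array. The knockout array at 4 h runs from 3728 to 14445 for Actb and from 5873 to 22663 for Gapdh, while the other 4 arrays are nearly level for Gapdh.

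The targeted genes came out unlike each other. Cebpa, the gene for C/EBPα, was near the floor on both knockout arrays, with intensities of 25.4 at 4 h and 21.5 at 8 h, whereas wild type had 757 at 8 h. Cebpb, the gene for C/EBPβ, was 26.9 at 4 h and 1263 at 8 h in the knockout, 47-fold higher at 8 h. Wild type had 8339.7 at 8 h, and at 24 h the knockout had 92 and wild type 4434. The knockout array at 8 h thus lay far above the knockout array at 4 h and below wild type for Cebpb. Its 2 probe sets gave log2 differences of 4.36 and 5.56. How far these probe sets report the deleted part of either gene is unknown.

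Over all genes, 1895 (13.8% of those above the floor) were higher at 8 h and 1228 (8.93%) were lower, with a median log2 difference of 0.08. These shares are the background for every list below. Had the agreement of probe sets not been asked for, 2462 genes (17.9%) would have been higher and 1645 (12%) lower, and 984 genes past 2-fold were left out for disagreement. The split depends on the scale. Higher genes were 60.7% of the called ones after quantile normalization, but 8.45% with the deposited values as they stand, which put the median gene 0.78 lower on the log2 scale. They were 69.5% after centring on the 18 hybridization controls, which put it 0.14 higher. The counts of list members that kept their call on all 4 other scalings are therefore given for some of the lists. A call without such a statement may not hold on every scaling. The deposited scale moves genes towards lower, so it favours lower calls and works against higher ones. Holding on all 4 scalings is therefore a stricter demand on higher calls than on lower ones. Directions are relative to the median gene.

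**Figure D2:**
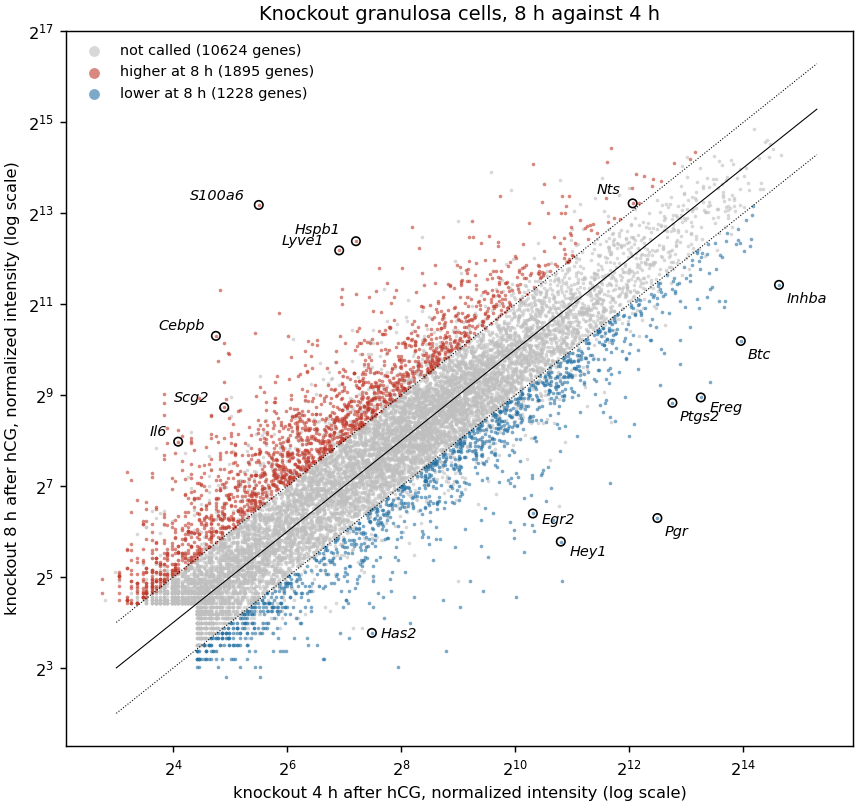
Normalized intensity of each gene above the floor on the knockout array at 4 h (horizontal, log scale) and at 8 h (vertical, log scale), with the line of equality and dotted lines at 2-fold. Red points are the 1895 genes called higher and blue points the 1228 called lower, and grey points between or beyond the lines include genes left out because their probe sets disagreed.

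Many of the called genes differed between the 4 h array and the rest while the rest were alike. Of the higher genes, 1214 (64.1%) stayed within 2-fold over the other 4 arrays, and of the lower genes 876 (71.3%), where 75.9% of all genes above the floor did so. The remaining 681 higher and 352 lower genes also varied by genotype or between 8 h and 24 h. For genes of the former kind, an early state of the cells and a property of the 4 h array cannot be told apart. Just inside the threshold of 1 on the log2 scale were Rbks at 1.0009 and Tvp23b at -1.0003. Just outside were Slc25a11, which lay barely under 1, and Tmc7 at -0.9996.

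The progesterone receptor gene gave the largest lower difference of all genes. Pgr, a nuclear receptor needed for follicle rupture, had an intensity of 5756 at 4 h and 78.6 at 8 h, 73.3-fold lower. Wild type at 8 h had 54.6, and at 24 h the knockout had 16.7 and wild type 13.5. The 4 h array was thus the only one of the 5 with a high Pgr signal. All 3 probe sets were lower, by log2 differences from -6.20 to -2.76.

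In the list of the progesterone receptor, its known targets and ovulatory transcription regulators, 5 of 22 members above the floor were called higher and 2 lower, with a median log2 difference of 0.07. Of the called members, 2 higher and 2 lower ones kept the call on all 4 other scalings. Among the members known as targets of the receptor, Il6, Prkg2 and Adamts1 were called higher. Il6, the cytokine interleukin 6, was 17 at 4 h and 252 at 8 h in the knockout, at least 12-fold higher, and 153 in wild type at 8 h. Prkg2, a cyclic GMP-dependent kinase, was 957 at 4 h and 3875 at 8 h, 4.05-fold higher, with all 3 probe sets between 1.60 and 2.02 on the log2 scale. Adamts1, a protease of the matrix proteoglycan versican, was 2490.3 at 4 h and 5498 at 8 h, 2.21-fold higher. All these genes were lower again at 24 h, where the knockout had 27.6 for Il6, 172 for Prkg2 and 3335 for Adamts1.

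Cxcr4, the receptor of the chemokine CXCL12, was 824 at 4 h and 2488 at 8 h in the knockout, 3.02-fold higher, and 2849 in wild type at 8 h. Its level then separated by genotype at 24 h, with 33.1 in the knockout and 691 in wild type. Tsc22d3, the glucocorticoid-induced leucine zipper gene, was 124 at 4 h and 2057 at 8 h, 16.6-fold higher, although its 4 probe sets ran from 0.14 to 4.43 on the log2 scale. The calls of Adamts1, Cxcr4 and Tsc22d3 were lost with the deposited values as they stand, and that of Tsc22d3 after median centring too.

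Nr5a2, the nuclear receptor LRH-1 that controls luteinization, was lower at 8 h, with 6053 at 4 h and 1825 at 8 h. Its 4 probe sets all lay between -1.73 and -1.06 on the log2 scale, and it was 4227 in the knockout and 5595 in wild type at 24 h. Other receptor targets did not pass 2-fold. Edn2, the contractile peptide endothelin 2, was 496 at 4 h and 676 at 8 h and Snap25, a vesicle fusion protein, 678 at 4 h and 892 at 8 h. For Edn2 the knockout arrays at 4 h and 8 h both lay above wild type at 8 h, at 113. Runx1, a transcription factor, was 1655 at 4 h and 1586 at 8 h with probe sets in both directions. No direction is stated for Zbtb16 and Fkbp5, which passed 2-fold with probe sets that disagreed.

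Of the EGF-like ligand genes, Ereg and Btc were far lower at 8 h. Among EGF-like ligands and ERBB receptors, 2 of 11 members above the floor were lower and 2 higher, with a median of -0.31. Ereg, the ligand epiregulin, had 9759 at 4 h and 494 at 8 h, 19.8-fold lower, and wild type at 8 h had 1119. Btc, the ligand betacellulin, had 15868 at 4 h and 1168 at 8 h, 13.6-fold lower, with log2 differences of -3.76 and -2.69 on its 2 probe sets. Wild type at 8 h had 319, so that both knockout arrays lay above it. Both ligands kept the call on all 4 other scalings, and the knockout at 24 h had 26.5 for Ereg and 41.6 for Btc.

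Receptor genes Egfr and Erbb2 were called higher. Egfr, the receptor of these ligands, was 214 at 4 h and 683 at 8 h, 3.19-fold higher by its representative, but the lowest of its 7 probe sets differed by 0.03 and the call was not kept when its probe sets were averaged. Erbb2, its partner receptor, was 65.7 at 4 h and 209.7 at 8 h, 3.19-fold higher on its only probe set. The call of Egfr held on 1 of the 4 other scalings and that of Erbb2 on 3, and both were lost with the deposited values as they stand. The ligand gene Tgfa passed 2-fold with probe sets that disagreed, so its direction is left unstated.

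Some genes of prostaglandin synthesis were also high on the 4 h array. Of 14 members of the list of prostaglandin synthesis, transport and receptors, 4 were lower and 1 was higher, with a median of -0.40. Ptgs2, the inducible cyclooxygenase, had 6912 at 4 h and 455 at 8 h in the knockout, 15.2-fold lower. Wild type had 955 at 8 h, and at 24 h the knockout had 12.4 and wild type 52.6. The 4 h array thus stood above all others. At both later times the knockout stood below wild type on this probe set only. The other gave 49.2 in the knockout and 44 in wild type at 8 h, and was under the floor in both at 24 h. Pla2g4a, the phospholipase that releases arachidonic acid, was 2772 at 4 h and 1308 at 8 h, 2.12-fold lower.

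Among the receptors, Ptger4, an E prostaglandin receptor, was 409.6 at 4 h and 57.1 at 8 h, 7.18-fold lower. Ptgfr, the F prostaglandin receptor, was 135 at 4 h and 12.5 at 8 h and so at least 6.41-fold lower, with 5 probe sets from -3.43 to -0.10 on the log2 scale. Wild type at 8 h had 227, above both knockout arrays, and the call was lost on 1 other scaling. Slco2a1, the transporter that takes prostaglandins up, went the other way, with 1073 at 4 h and 3337 at 8 h, 3.11-fold higher on the lowest of 4 probe sets. Its level at 8 h was 649.9 in wild type, and its call was lost with the deposited values as they stand. Ptger1 passed 2-fold with disagreeing probe sets and is given no direction.

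Genes of the hyaluronan matrix, which cumulus cells lay down around the oocyte, did not move as 1 group. Of 11 members above the floor, 3 were lower and 2 higher, with a median of -0.01. Has2, the hyaluronan synthase of cumulus expansion, was 179 at 4 h and below the floor at 8 h, at 13.6, which is at least 8.50-fold lower. Both its probe sets differed by -3.71 or more in the lower direction, and wild type at 8 h had 44. Has1, another synthase, was 161 at 4 h and 41.3 at 8 h, 3.89-fold lower. Tnfaip6, which links hyaluronan to heavy chains, was 1458 at 4 h and 600.2 at 8 h, 2.43-fold lower, close to the 547 of wild type at 8 h.

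Ptx3, the pentraxin that stabilizes this matrix, had nearly the same intensity on all 3 early arrays, with 2140.4 at 4 h and 2128 at 8 h in the knockout and 2084 in wild type at 8 h. Lyve1, a hyaluronan receptor, was among the genes with the largest higher differences, with 120.2 at 4 h and 4647 at 8 h. It was 38.7-fold higher, both probe sets differed by 5.27 or more on the log2 scale, and wild type at 8 h had 5708. At 24 h it was down to 66.9 in the knockout and 86.3 in wild type. Hmmr, a hyaluronan-binding motility receptor, was 125 at 4 h and 336 at 8 h, 2.70-fold higher, a call lost with the deposited values as they stand. For Sdc4, past 2-fold, the probe sets disagreed.

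**Figure D3:**
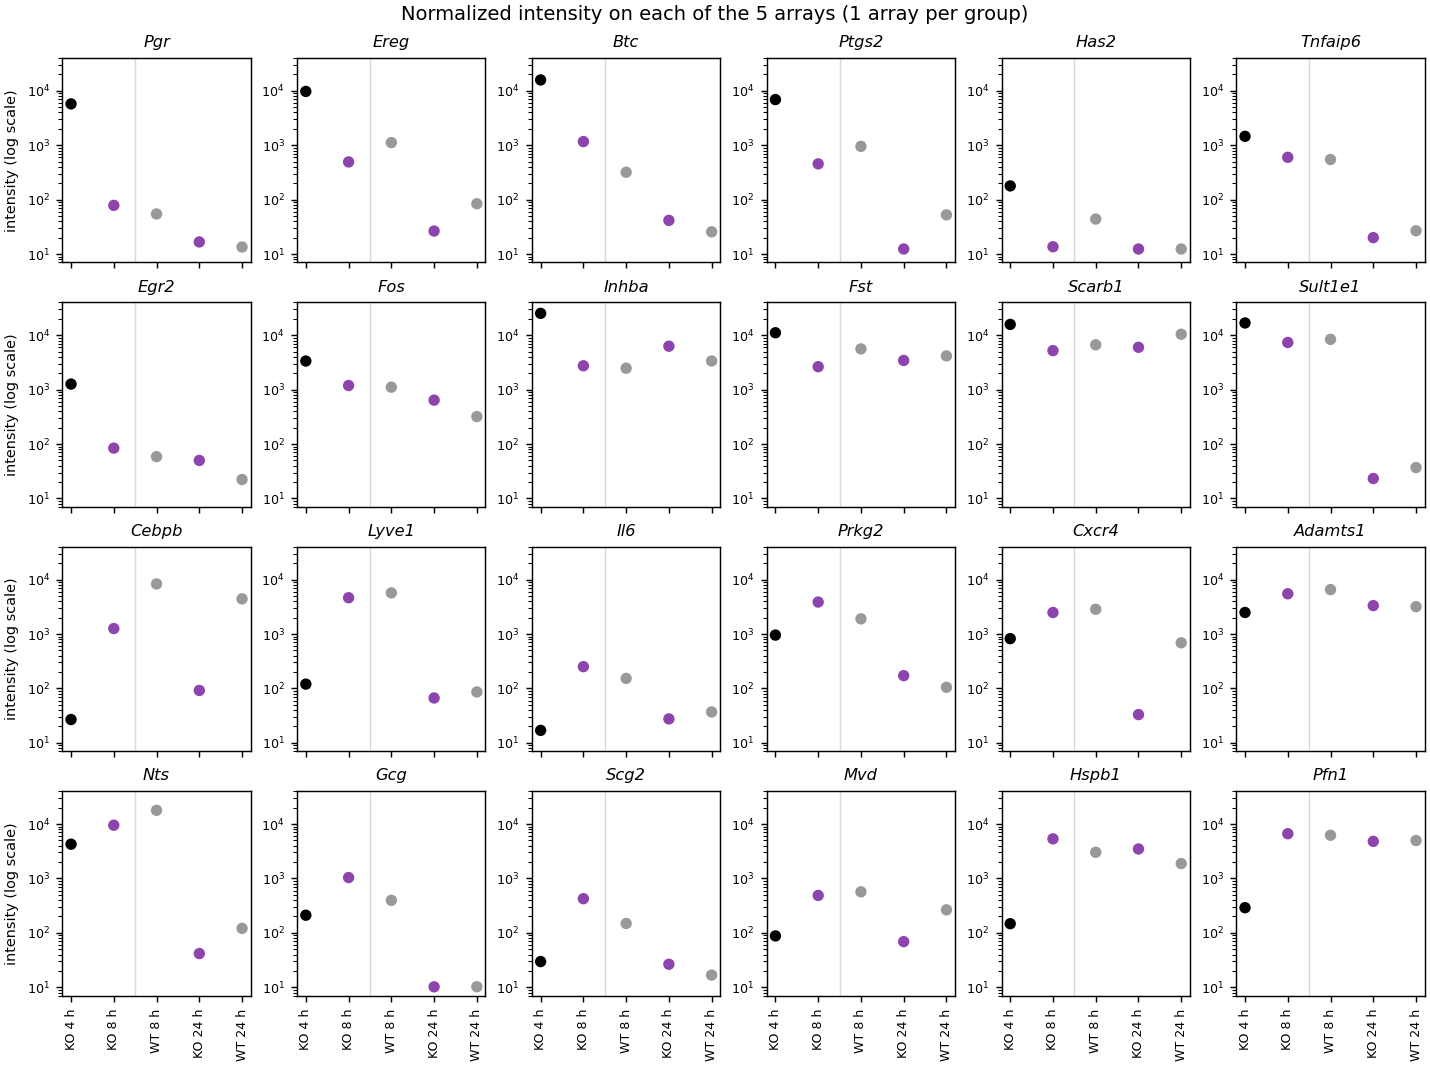
Normalized intensity (log scale) of 24 genes on each of the 5 arrays, 1 point per array, with the knockout at 4 h in black, the knockout at 8 h and 24 h in purple and wild type in grey. In the upper panels the 4 h point is the highest, as for Pgr at 5756 against 78.6 at 8 h, and in the lower panels the 8 h knockout point lies above it, as for Lyve1 at 4647 against 120.2.

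The sequences before some of these genes are shown because cyclic AMP and the C/EBP factors act on promoter elements of known letters. Promoters are the 250 bases before the RefSeq start, on GRCm38.p6, and capitals mark exact matches on either strand to TGACGTCA, TTGCGCAA, CCAAT or TATAAA, none of which contains another. Ptgs2, in the first line, holds the C/EBP palindrome TTGCGCAA (chr1:150099781-150100030, plus strand). Pgr, in the second, holds the letters TATAAA and CCAAT, both read here on the other strand, and neither of the 8-base elements (chr9:8899583-8899832, plus strand). Scg2, a secretory granule gene that was higher at 8 h, holds the cyclic AMP response element TGACGTCA (chr1:79440027-79440276, minus strand).
Ptgs2: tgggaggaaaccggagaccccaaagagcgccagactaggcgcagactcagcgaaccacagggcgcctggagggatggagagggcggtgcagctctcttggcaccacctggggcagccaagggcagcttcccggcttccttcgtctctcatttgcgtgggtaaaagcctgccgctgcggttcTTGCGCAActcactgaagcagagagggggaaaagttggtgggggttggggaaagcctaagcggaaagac
Pgr: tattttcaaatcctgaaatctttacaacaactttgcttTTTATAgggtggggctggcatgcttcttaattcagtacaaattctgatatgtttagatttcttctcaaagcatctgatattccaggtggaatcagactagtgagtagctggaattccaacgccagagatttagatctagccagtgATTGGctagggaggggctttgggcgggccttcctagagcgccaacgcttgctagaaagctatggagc
Scg2: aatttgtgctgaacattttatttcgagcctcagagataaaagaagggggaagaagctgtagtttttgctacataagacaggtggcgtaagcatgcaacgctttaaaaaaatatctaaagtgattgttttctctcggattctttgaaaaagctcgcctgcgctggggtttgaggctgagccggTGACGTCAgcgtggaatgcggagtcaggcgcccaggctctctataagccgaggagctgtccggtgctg

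Over all called genes these elements were about as frequent as in the background. TGACGTCA was in the promoters of 2.86% of 11033 genes above the floor with a sequence, 2.05% of 1564 higher genes and 2.13% of 986 lower genes. TTGCGCAA was in 0.272%, 0.192% and 0.304%, and CCAAT in 39.9%, 39.8% and 41.2%. TATAAA was in 8.66%, 8.25% and 10.6%. Where a gene had several starts, a match before any of them counted. Among lower genes named here, Ch25h, Has1, Errfi1, Chgb and Cenpe also held TGACGTCA, as did Cdkn2b among higher ones. A match to these letters is not a measured binding site.

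Immediate early transcription factors, the genes that answer a hormone or growth signal without new protein, had more members called lower than higher at 8 h. Of 29 members above the floor, 9 were lower and 4 higher, with a median of -0.41. Of these, 7 lower and 2 higher members kept the call on all 4 other scalings. Egr2, a zinc finger factor, was 1266 at 4 h and 84.2 at 8 h, 15-fold lower, with log2 differences of -3.91 and -3.71 on its 2 probe sets. Wild type at 8 h had 58.7, so the 4 h array stood alone. Fos, a subunit of the factor AP-1, was 3358 at 4 h and 1192 at 8 h, 2.82-fold lower, and 1110.3 in wild type at 8 h.

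Further members were lower by smaller folds. Btg1, an antiproliferative cofactor, was 13157 at 4 h and 2135 at 8 h, 6.16-fold lower on a gene whose 3 probe sets all passed 2-fold. Ier5 was 987 at 4 h and 221 at 8 h, 4.47-fold lower. Bhlhe40, a helix-loop-helix repressor, was 2023 at 4 h and 681 at 8 h, 2.97-fold lower. Crem, a cyclic AMP-responsive factor whose short form shuts such promoters down, was 925 at 4 h and 246 at 8 h, 3.75-fold lower, with 4 probe sets from -4.59 to -0.11 on the log2 scale.

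Some members went the other way or did not pass. Klf2, a Krüppel-like factor, was 156 at 4 h and 1139 at 8 h, 7.30-fold higher. Zfp36, an RNA-binding protein that destabilizes messages, was 266 at 4 h and 1072 at 8 h, 4.03-fold higher. Klf10 was 2.18-fold and Nfil3 2.23-fold higher, 2 calls lost with the deposited values as they stand. For Nfil3 the knockout had 287 at 8 h where wild type had 1514. Egr1, the early growth response gene most often used as a marker, was 5943 at 4 h and 3518 at 8 h and did not pass 2-fold. For Nr4a2 and Jund, past 2-fold, the probe sets disagreed.

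The genes that limit ERK signalling did not share a direction. Of 18 ERK feedback phosphatases and Sprouty genes, 2 were higher and 2 lower, with a median of 0.01. Errfi1, an inhibitor of the EGF receptor, was 15414 at 4 h and 6473 at 8 h, 2.38-fold lower, and Spry1, a Sprouty inhibitor, 129 at 4 h and 36.8 at 8 h, 3.49-fold lower. Dusp2, a phosphatase of ERK, was 26.9 at 4 h and 94.9 at 8 h, 3.54-fold higher. Spred3 was 3.28-fold higher, and no direction is stated for Spred1.

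Cyclic AMP signalling held 4 higher and 1 lower genes of 25, with a median of 0.02, and 6 more that passed 2-fold with probe sets in disagreement. Adcy7, an adenylyl cyclase, was 103 at 4 h and 503 at 8 h, 4.88-fold higher, and Adcy6 2.35-fold higher. Prkaca, the catalytic subunit of protein kinase A, was 443 at 4 h and 1245 at 8 h, 2.81-fold higher with both probe sets past 2-fold. Creb3l1, a membrane-bound factor of the same family as CREB, was 2.51-fold higher. The lower member was Crem. None of the higher calls held with the deposited values as they stand.

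Genes of the preovulatory granulosa cell were lower more often than higher. Of 28 members above the floor, 5 were lower and 2 higher, with a median of -0.35. All 5 lower calls held on all 4 other scalings, of which the deposited one favours lower calls. Inhba, the subunit that forms activin A and inhibin A, was 25244 at 4 h and 2747 at 8 h, 9.19-fold lower, though its other probe set differed by -0.46. Wild type at 8 h had 2479. Fst, the activin-binding protein follistatin, was 11113 at 4 h and 2643 at 8 h, 4.21-fold lower, with log2 differences of -2.07 and -1.60 on 2 probe sets. Unlike Inhba, it was below the 5611 of wild type at 8 h.

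Nap1l5 was 10532 at 4 h and 2299.6 at 8 h, 4.58-fold lower. Greb1, an estrogen-regulated cofactor, was 8545 at 4 h and 2908 at 8 h, 2.94-fold lower, with all 4 probe sets past 2-fold. Esr2, the estrogen receptor of granulosa cells, was 247 at 4 h and 106 at 8 h, 2.33-fold lower, and the other 4 arrays stayed between 101 and 114. Amh, the anti-Müllerian hormone, was 111 at 4 h and 279 at 8 h, 2.51-fold higher. Kctd14 was 2.29-fold higher, a call not kept when its probe sets were averaged. The calls of Amh and Kctd14 were both lost with the deposited values as they stand. Fshr, the receptor of follicle-stimulating hormone, was 683 at 4 h and 434 at 8 h and did not pass 2-fold.

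Growth factor genes of the TGF-beta and WNT families gave 6 lower and 4 higher members of 31, with a median of -0.29. All lower calls, including Inhba and Fst above, held on the 4 other scalings. Bmp2, a bone morphogenetic protein, was 1344 at 4 h and 475 at 8 h, 2.83-fold lower, and the receptor genes Bmpr2 and Bmpr1b were lower too. Bmpr2 was 15289.7 at 4 h and 5433 at 8 h, 2.81-fold lower, with all 3 probe sets between -1.56 and -1.35 on the log2 scale. Bmpr1b was 2219.7 at 4 h and 799 at 8 h, 2.78-fold lower, also with 3 probe sets past 2-fold. Id1, a helix-loop-helix inhibitor that BMP signals induce, was 70.9 at 4 h and 376 at 8 h, 5.31-fold higher, and 930.3 in wild type at 8 h.

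WNT genes went both ways. Wnt11 was 198 at 4 h and 43.6 at 8 h, 4.53-fold lower, and Wnt4 was 371 at 4 h and 831 at 8 h, 2.24-fold higher. The receptor gene Fzd1 was 579.5 at 4 h and 1620.3 at 8 h, 2.80-fold higher, below the 3473 of wild type at 8 h. Fstl3, a relative of follistatin, was 2.55-fold higher. Apart from Id1, these higher calls were lost with the deposited values as they stand. Tgfb1, Id4 and Sfrp1 passed 2-fold with disagreeing probe sets.

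Steroid synthesis and metabolism gave 4 lower and 2 higher members of 18, with a median of -0.60. Scarb1, the receptor that takes up cholesterol from high-density lipoprotein, was 15809.5 at 4 h and 5213 at 8 h, 3.03-fold lower, with all 3 probe sets past 2-fold. Sult1e1, which inactivates estrogen, was 16809 at 4 h and 7365 at 8 h, 2.28-fold lower, near the 8393 of wild type at 8 h and far above the 23.3 of the knockout at 24 h. Cyp1b1, an enzyme of estrogen hydroxylation, was 2033 at 4 h and 972 at 8 h, 2.09-fold lower. Hsd17b7, an enzyme of estradiol and cholesterol synthesis, was 1876 at 4 h and 915 at 8 h, 2.05-fold lower, and neither of the last 2 calls was kept when probe sets were averaged.

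On the other side, Hsd17b11 was 1456 at 4 h and 12714 at 8 h, 8.73-fold higher, with 3 probe sets from 0.80 to 6.36 on the log2 scale. Tspo, a mitochondrial outer membrane protein long linked to steroid synthesis, was 2.47-fold higher. Neither call held with the deposited values as they stand. Star, which carries cholesterol into mitochondria, was 14785 at 4 h and 8447 at 8 h, a log2 difference of -0.81 that did not pass, although its other probe sets reached -3.22. Cyp11a1, the side-chain cleavage enzyme that makes pregnenolone, was 15717 at 4 h and 9258 at 8 h and also did not pass, with probe sets from -0.76 to 0.86.

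Cholesterol biosynthesis and SREBP genes, which supply the sterol for these hormones, were more often higher. Of 26 members above the floor, 9 were higher and 3 lower, with a median of 0.81, or -0.05 with the deposited values as they stand, where the median gene was 0.78 lower. Of the higher members, 4 kept the call on all 4 other scalings. Mvd, mevalonate decarboxylase, was 87.9 at 4 h and 488 at 8 h, 5.55-fold higher, with both probe sets past 2-fold. Mvk, mevalonate kinase, was 132 at 4 h and 426 at 8 h, 3.22-fold higher with both probe sets past 2-fold. Dhcr7, which completes cholesterol, was 355 at 4 h and 1254 at 8 h, 3.53-fold higher, below the 3171 of wild type at 8 h. Scd1, a fatty acid desaturase, was 625 at 4 h and 3213 at 8 h, 5.14-fold higher with both probe sets past 2-fold.

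Srebf2, the transcription factor of this pathway, was 189 at 4 h and 1138 at 8 h, 6.01-fold higher, with its other probe set at 0.58 on the log2 scale. Insig1, which holds that factor back, was 511 at 4 h and 1627 at 8 h, 3.18-fold higher. The related Insig2 was 1262 at 4 h and 373 at 8 h, 3.38-fold lower. Sc5d, a sterol desaturase, was 3578 at 4 h and 1756 at 8 h, 2.04-fold lower. No direction is stated for Fdps, whose probe sets gave -0.20 and 4.11. At 24 h the knockout was below wild type for Mvd, with 68.9 against 265, and for Dhcr7, with 1083 against 3746.

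**Figure D4:**
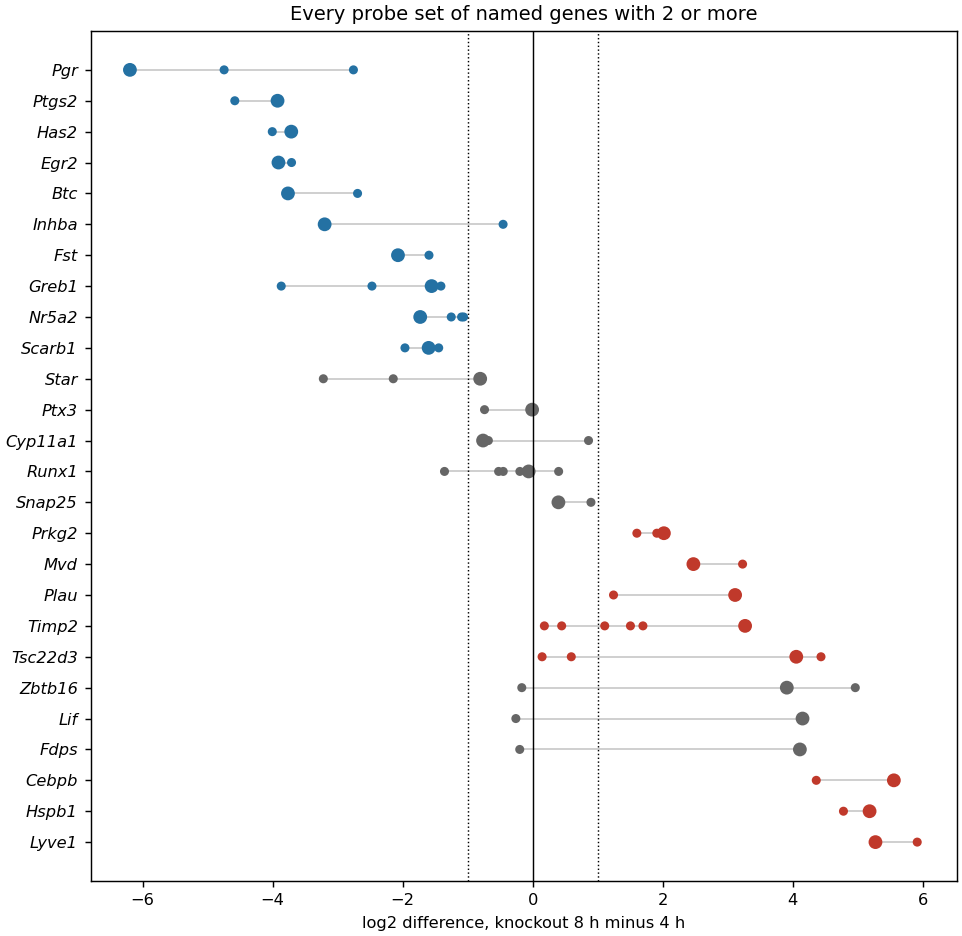
Log2 difference between the knockout at 8 h and at 4 h (horizontal) for every probe set of 26 named genes with 2 or more, where the large point is the representative and dotted lines mark 2-fold. Blue genes are called lower, red genes higher and grey genes are not called; for Zbtb16, Lif and Fdps the probe sets lie on both sides of 0, so no direction is stated.

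Cytokines, chemokines and their receptors gave 4 higher and 2 lower members of 23, with a median of -0.10. Besides Il6 and Cxcr4, the chemokine gene Cxcl3 was 9.10 at 4 h and 48.1 at 8 h, at least 2.29-fold higher, and was below the floor on all other arrays. Ccl2, a monocyte chemokine, was at least 1.49-fold higher from a level under the floor at 4 h, and its call was lost with the deposited values as they stand. Tnfsf11, the ligand RANKL, was 247 at 4 h and under the floor at 8 h, at least 11.7-fold lower, with its other probe set at -0.72 on the log2 scale. Wild type at 8 h had 81.9. Il1r1, the interleukin 1 receptor, was 4647 at 4 h and 2195 at 8 h, 2.12-fold lower, a call not kept when its probe sets were averaged. No direction is stated for Lif, a cytokine of the interleukin 6 family, or for Osmr.

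Angiogenic and vasoactive factors gave 4 higher and 3 lower members of 23, with a median of 0.19. Vegfb was 31.6 at 4 h and 359 at 8 h, 11.4-fold higher, and the other 4 arrays stayed within 2-fold of each other. Ramp2, the partner of the adrenomedullin receptor, was 55 at 4 h and 624 at 8 h, 11.4-fold higher. Vegfd was 19.9 at 4 h and 98.3 at 8 h, at least 4.67-fold higher on the representative of 3 agreeing probe sets, against 554 in wild type at 8 h. Pdgfa was 2.27-fold higher, but not with the deposited values as they stand.

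Among the lower members, Npr3, the receptor that clears natriuretic peptides, was 693 at 4 h and 25.9 at 8 h, 26.8-fold lower, with 3 probe sets from -4.74 to -1.52. Natriuretic peptide of granulosa cells holds the oocyte in meiotic arrest before the surge. Vegfc was 135 at 4 h and 56 at 8 h, 2.41-fold lower, with all 3 probe sets past 2-fold. Kdr, the main VEGF receptor, was 218 at 4 h and 87.4 at 8 h, 2.50-fold lower, against 233 in wild type at 8 h.

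Extracellular proteases and inhibitors, which open the follicle wall, gave 6 higher and 3 lower members of 25, with a median of 0.34, which was -0.03 when only both knockout arrays were quantile-normalized. Plau, the urokinase plasminogen activator, was 116 at 4 h and 1005 at 8 h, 8.66-fold higher with both probe sets past 2-fold, with 406 in wild type at 8 h. Mmp11, a matrix metalloproteinase, was 265 at 4 h and 1151 at 8 h, 4.34-fold higher, and 6775 in the knockout at 24 h. Timp1, a metalloproteinase inhibitor, was 2254 at 4 h and 7333 at 8 h, 3.25-fold higher. Timp2 was 385 at 4 h and 3702 at 8 h, 9.63-fold higher by its representative, with 6 probe sets from 0.18 to 3.27.

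Mmp19 was 8.23 at 4 h and 28.1 at 8 h, at least 1.33-fold higher, from under the floor, and 95.8 in wild type at 8 h. Ctsb, the lysosomal protease cathepsin B, was 4951 at 4 h and 1935 at 8 h, 2.56-fold lower. Mmp2 was 259 at 4 h and 127 at 8 h and Mmp9 29 at 4 h and 13.6 at 8 h, both lower and both near the threshold or the floor. Of these calls, only Plau, Mmp11 and Ctsb held on all 4 other scalings. Probe sets of Mmp14 disagreed.

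Neuropeptide, secretory and vesicle genes gave 5 higher and 1 lower members of 16, with a median of 0.36, or -0.46 with the deposited values as they stand. Scg2, whose promoter is shown above, was 29.7 at 4 h and 424 at 8 h, 14.3-fold higher, and 149 in wild type at 8 h. Gcg, the glucagon precursor, was 211 at 4 h and 1038 at 8 h, 4.92-fold higher, and 397 in wild type at 8 h. Both were above wild type at 8 h and near or under the floor at 24 h.

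Nts, the peptide neurotensin, was 4260.3 at 4 h and 9516 at 8 h, 2.23-fold higher, below the 17885 of wild type. Its call was lost with the deposited values as they stand. The vesicle genes Syt11 and Vamp2 were 5.29-fold and 3.01-fold higher, and all of their 5 and 2 probe sets were higher. The call of Syt11 was lost when both knockout arrays alone were quantile-normalized. Chgb, a granin like Scg2, was on the lower side, with 535 at 4 h and 239 at 8 h, 2.24-fold lower. Probe sets of Oxtr disagreed.

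Glutathione, redox and metallothionein genes held the largest share of higher members of the 25 gene lists. Of 22 above the floor, 10 were higher and 2 lower, with a median of 0.93, or 0.10 with the deposited values as they stand. Of the higher members, 5 kept the call on all 4 other scalings. Gstm2, a glutathione transferase, was 615 at 4 h and 5698 at 8 h, 9.26-fold higher. Its neighbour in sequence Gstm1 was 580.2 at 4 h and 5736 at 8 h, 9.89-fold higher, and signals of such similar genes may mix on an array. The 4 probe sets of Gstm1 ran from 0.56 to 4.30 on the log2 scale, and its call was lost with the deposited values as they stand. Gpx1, a glutathione peroxidase, was 831 at 4 h and 4944 at 8 h, 5.95-fold higher, and Gstp1 1029 at 4 h and 4159.9 at 8 h, 4.05-fold higher. Both stayed within 2-fold over the other 4 arrays.

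Gclm, a subunit of the enzyme that starts glutathione synthesis, was 414 at 4 h and 1856 at 8 h, 4.48-fold higher. Its other probe set differed by 0.33 on the log2 scale, and its call was lost with the deposited values as they stand. Mt2, a metallothionein, was 1905 at 4 h and 9212 at 8 h, 4.84-fold higher, and no direction is stated for Mt1. Srxn1, sulfiredoxin, was 2466 at 4 h and 724 at 8 h, 3.41-fold lower, with 4 agreeing probe sets and 237 in wild type at 8 h. Txnip, an inhibitor of thioredoxin, was 2801 at 4 h and 894 at 8 h, 3.13-fold lower.

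Oxidative phosphorylation subunits gave 8 higher and 0 lower members of 27, with a median of 0.36, or -0.49 with the deposited values as they stand. All 8 higher members stayed within 2-fold over the other 4 arrays, and 1 kept the call on all 4 other scalings. That member, Ndufa4, was 1122 at 4 h and between 5106 and 5762 on the other arrays, 4.55-fold higher at 8 h. Ndufv2 was 569 at 4 h and 3290.0 at 8 h, 5.78-fold higher, with 3 probe sets from 0.48 to 2.53. Housekeeping genes, too, had higher calls only. Of 14, 3 were higher and none of them lower by the rule, with a median of 0.34, or -0.59 with the deposited values as they stand. B2m, of the class I histocompatibility complex, was 1445 at 4 h and 4633 at 8 h, 3.21-fold higher. Actb was 9059 at 4 h and 20882 at 8 h, 2.31-fold higher by its 3' probe set and with log2 differences of up to 4.22 on the other 4. Hprt was 2.08-fold higher and, unlike B2m and Actb, varied by more than 2-fold over the other 4 arrays. None of these 3 calls held on the deposited scale. No direction is stated for Tfrc and Ywhaz, past 2-fold with probe sets that disagreed.

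Glycolysis and hypoxia genes gave 3 lower and 2 higher members of 23, with a median of 0.00, and all of these calls held on the 4 other scalings. The hexokinases, which start glycolysis, were on opposite sides. Hk1 was 65.1 at 4 h and 655 at 8 h, 10.1-fold higher with both probe sets past 2-fold, while Hk2 was 362 at 4 h and 138 at 8 h, 2.62-fold lower, far below the 837 of wild type at 8 h. Pfkp, a phosphofructokinase, was 1332 at 4 h and 497 at 8 h, 2.68-fold lower with all 3 probe sets past 2-fold. The glucose transporter gene Slc2a3 was 2.37-fold lower, but not when its probe sets were averaged. Bnip3, a mitochondrial protein induced by low oxygen, was 380.4 at 4 h and 1686 at 8 h, 4.43-fold higher, and 3324 in wild type at 8 h. Probe sets of Pfkl and Aldoa disagreed, and their direction is not stated.

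Among mitosis and DNA replication genes, 3 of 31 were lower and 1 was higher, with a median of -0.44. Bub1b, of the spindle checkpoint, was 1675 at 4 h and 560.3 at 8 h, 2.99-fold lower with all 3 probe sets past 2-fold. Ccne1, a cyclin of S phase entry, and Cenpe, a kinesin of the kinetochore, were 2.78-fold and 2.37-fold lower, 2 calls not kept when probe sets were averaged. Birc5, survivin, was 434 at 4 h and 990.0 at 8 h, 2.28-fold higher, a call lost with the deposited values as they stand.

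G1 cyclins and cyclin-dependent kinase inhibitors gave 5 higher and 1 lower members of 20, with a median of 0.21. Inhibitors of the cell cycle were among the higher ones. Cdkn2d was 78.9 at 4 h and 1010.1 at 8 h, 12.8-fold higher. Cdkn1b, the inhibitor p27 that granulosa cells accumulate as they luteinize, was 235 at 4 h and 1617 at 8 h, 6.88-fold higher with its other probe set under the floor on both arrays, and 2696 in the knockout and 3903 in wild type at 24 h. Rbl2, a relative of the retinoblastoma protein, was 48.1 at 4 h and 265 at 8 h, 5.52-fold higher with both probe sets past 2-fold. Cdkn2b and Gadd45a were at least 2.18-fold and 2.55-fold higher, 2 calls lost with the deposited values as they stand, and Gadd45g was 2.23-fold lower.

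Apoptosis genes gave 4 higher and 1 lower members of 17, with a median of 0.09, and all of them stayed within 2-fold over the other 4 arrays. Bak1, which opens the mitochondrial membrane, was 25.4 at 4 h and 195 at 8 h, 7.67-fold higher, with its other probe set at 0.58 on the log2 scale. Bbc3, the p53 target PUMA, was 23.2 at 4 h and 129 at 8 h, 5.54-fold higher and kept the call on all 4 other scalings, which no other called member did. Casp8 and Cflar were 2.44-fold and 2.11-fold higher. Bcl2, the survival gene, was 173 at 4 h and 57.1 at 8 h, 3.03-fold lower, with 5 probe sets from -2.33 to -0.01.

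The circadian clock list gave 3 higher and 3 lower members of 17, with a median of -0.04. Dbp, an output gene of the clock, was 64.2 at 4 h and 266 at 8 h, 4.15-fold higher with both probe sets past 2-fold, and 1006 in the knockout at 24 h. Cry2, a repressor of the clock, was 957 at 4 h and between 134 and 172 on the other arrays, 7.14-fold lower at 8 h. Nr1d2 was 859 at 4 h and 345 at 8 h, 2.49-fold lower, a call not kept when its probe sets were averaged. Npas2 was at least 1.39-fold higher from under the floor, and its call was lost on 2 other scalings.

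Heat shock and unfolded protein response genes gave 4 higher and 3 lower members of 24, with a median of 0.20. Hspb1, a small heat shock protein, was 147 at 4 h and 5348 at 8 h, 36.3-fold higher, with log2 differences of 4.78 and 5.18 on 2 probe sets. Hspa1b, an inducible chaperone, was 401 at 4 h and 2159 at 8 h, 5.39-fold higher with all 3 probe sets past 2-fold, and Hspa1a, nearly identical to it in sequence, 2.61-fold higher. Hsph1 and Hspd1, chaperones too, were on the other side, with 7539.9 at 4 h and 2147 at 8 h for Hsph1, 3.51-fold lower. Hspd1 was 8808 at 4 h and 3740.4 at 8 h, 2.36-fold lower. Sesn2 was 2.92-fold higher, and Asns, asparagine synthetase, 2.22-fold lower with a call not kept when its probe sets were averaged. The calls of Hspa1a and Sesn2 were lost with the deposited values as they stand.

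In the list of the C/EBP family and Tribbles genes, Cebpb was the 1 higher member of 8, and 2 were lower. Cebpg, a family member that pairs with the others, was 1145 at 4 h and 417 at 8 h, 2.75-fold lower, and Trib2, a pseudokinase that promotes the breakdown of C/EBPα, 1078 at 4 h and 378 at 8 h, 2.85-fold lower. The lowest-moving probe sets of both differed by less than 2-fold, at -0.27 and -0.17, and neither call was kept when probe sets were averaged.

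Beyond the lists, the genes with the largest differences are given by size. On the lower side, after Pgr, the largest were in Depp1, a progesterone-induced gene, with 1796 at 4 h and 30.2 at 8 h, 59.5-fold lower, and G530011O06Rik, 43.4-fold lower. The other probe set of Depp1 differed by -0.15, and its call was lost after centring on the hybridization controls. Hey1, a repressor in the Notch pathway, was 1779 at 4 h and 54.8 at 8 h, 32.5-fold lower, and between 38.4 and 54.8 on the other 4 arrays. Epha4, an ephrin receptor, was 1144 at 4 h and 47 at 8 h, 24.3-fold lower, with all 5 probe sets past 2-fold and 114 in wild type at 8 h. Slc27a3, a fatty acid transport protein, was 3231 at 4 h and 134 at 8 h, 24.1-fold lower.

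Msc, a helix-loop-helix repressor, was 1255 at 4 h and 70.6 at 8 h, 17.8-fold lower. Ch25h, which makes 25-hydroxycholesterol, was 427 at 4 h and 22.6 at 8 h, 18.9-fold lower. Robo2, a receptor of Slit proteins, was 592 at 4 h and 30.2 at 8 h, 19.6-fold lower, and under the floor in wild type at 8 h. Mpp7 and Ndnf were 21.4-fold and 20.0-fold lower, and Neb and Slitrk6 at least 24.8-fold and at least 21-fold lower. Where every one of 2 or more probe sets passed 2-fold and the floor, 179 genes were lower. The 8 with the largest smallest difference were Ptgs2, Egr2 and Has2 above, and Srbd1, Dner, Flrt3, Piga and Il7. Dner, a Notch ligand, was 673 at 4 h and 51.4 at 8 h with log2 differences of -3.71 and -3.68. Flrt3, an adhesion protein, was 1582 at 4 h and 125 at 8 h with -6.08 and -3.66, and Il7, a lymphocyte cytokine, 1391 at 4 h and 152 at 8 h with -3.34 and -3.19.

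The largest higher difference was in S100a6, a calcium-binding protein, with 45.2 at 4 h and 9289 at 8 h, 205-fold higher on its only probe set. On the other 3 arrays it lay between 6141 and 12352. Anp32a, a nuclear protein, was 28.1 at 4 h and 2539 at 8 h, 90.3-fold higher, but its 3 probe sets began at 0.55 on the log2 scale and its call was lost on 2 of the 4 other scalings. After Cebpb and Lyve1 came Fabp4, a fatty acid carrier, with 29.7 at 4 h and 1136 at 8 h, 38.3-fold higher by the representative of 4 probe sets that began at 0.74. Cited1, a transcription cofactor, was 31.1 at 4 h and 974 at 8 h, 31.3-fold higher, with 1536 in wild type at 8 h, and the knockout had 107 at 24 h. Asgr1, a receptor of desialylated glycoproteins, was 43.2 at 4 h and 1319 at 8 h, 30.6-fold higher, above the 729 of wild type at 8 h.

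Ldhd, a D-lactate dehydrogenase, was 14.3 at 4 h and 523 at 8 h, at least 24.9-fold higher with both probe sets past 2-fold. Coro2b, an actin-binding coronin, was 21.9 at 4 h and 490.2 at 8 h, 22.4-fold higher with both probe sets past 2-fold. Pfn1, which binds actin monomers, was 290.0 at 4 h and 6641 at 8 h, 22.9-fold higher, and the other 4 arrays stayed between 4807 and 6641. Tle5, Rpp25, Otub1 and Timm10b were likewise low on the 4 h array alone, with the other 4 arrays within 2-fold, and were 30.3-fold, at least 21.7-fold, 31.4-fold and 30.9-fold higher. The lowest probe sets of Otub1 and Timm10b differed by 0.88 and 0.50 on the log2 scale. The call of Otub1 was lost when both knockout arrays alone were quantile-normalized, and that of Timm10b with the deposited values as they stand. Where every one of 2 or more probe sets passed 2-fold and the floor, 240 genes were higher. The 8 with the largest smallest difference were Lyve1, Hspb1, Cebpb and Ldhd, and Chchd10, Gprc5b, Lpin1 and Csrp1. Chchd10, a mitochondrial protein, was 849 at 4 h and 10640.1 at 8 h with log2 differences of 3.65 and 4.50. Gprc5b, an orphan receptor, was 72.9 at 4 h and 688 at 8 h with 3.24 and 4.07, below the 1859.8 of wild type at 8 h. The 35 list members past 2-fold whose probe sets disagree are not given a direction.

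Markers of the labelled cell type were present on both arrays. All 10 measured granulosa markers were above the floor, among them Inha, the inhibin alpha subunit, at 22652 at 4 h and 23609 at 8 h, and Foxl2, a factor that keeps granulosa identity, at 916 at 4 h and 1312 at 8 h. Of these 10, 2 were lower (Inhba, Nr5a2) and 1 higher (Kctd14), with a median of -0.26. The log2 difference was above 0 for 5 of them and below 0 for 5. Their summed intensity was 80914 at 4 h and 49571 at 8 h. That sum is weighted to bright members such as Inhba, at 25244 at 4 h and 2747 at 8 h. In bulk samples, fewer cells of a type and less RNA per cell cannot be told apart.

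Markers of other cells were compared between the 4 h and 8 h knockout arrays as well. Endothelial markers summed to 918 at 4 h and 928 at 8 h, against 2885 in wild type at 8 h, with 12 of 18 above the floor, 2 higher (Cdh5, Emcn) and 2 lower (Kdr, Sox18). Pecam1 and Tek, defining endothelial genes, were under the floor on both. Stroma and smooth muscle markers summed to 7194 and 7396, against 32787 in wild type at 8 h, with 3 of 16 higher (Col1a1, Pdgfrb, Mgp) and 0 lower. So these sums were alike at both knockout times, and wild type stood above both, but single members differed. Of the 12 endothelial markers 9 were above 0 and 3 below, with a median of 0.58. For the 16 stroma markers, 11 were above 0 and 5 below, with a median of 0.23. With the deposited values as they stand these medians were -0.22 and -0.53. In both lists, 0 of the higher calls held on all 4 other scalings.

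Theca markers summed to 7823 at 4 h and 4602 at 8 h, with 3 of 8 lower (Cyp17a1, Fbln5, Aldh1a1) and 2 higher (Tcf21, Gli1). Their median was 0.19, with 4 members above 0 and 4 below. The sum is weighted to bright members such as Aldh1a1, at 4580 at 4 h and 2040 at 8 h. Probe sets of Nr2f2, past 2-fold, disagreed. Cyp17a1, the androgen-making enzyme of theca, was 1565 at 4 h and 379 at 8 h, 4.13-fold lower, against 1040.3 in wild type at 8 h. Leukocyte markers summed to 1129 and 1345, with 5 of 17 higher, led by Cd52 at 33.7 at 4 h and 212 at 8 h, and 0 lower. Their median was 0.13, with 9 members above 0 and 8 below. Ptprc passed 2-fold by its representative, at 84.3 at 4 h and 25.9 at 8 h. Its probe sets gave -1.70 and 0.20, so its direction is left unstated. S100a8 and S100a9, neutrophil genes, were under the floor at 4 h and 56 and 63.2 at 8 h.

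Oocyte markers summed to 10605 at 4 h and 6969 at 8 h, with 4 of 15 lower (Zp1, Zp2, Nlrp5, Ddx4) and 1 higher (Omt2b). Their median was -0.25, with 6 members above 0 and 9 below. Omt2b was 299 at 4 h and 669 at 8 h, a call lost with the deposited values as they stand. Zp2, of the egg coat, was 1729.7 at 4 h and 431 at 8 h, 4.02-fold lower, and Nlrp5, an egg protein, 1402 at 4 h and 348 at 8 h, 4.02-fold lower. Both stayed within 2-fold over the other 4 arrays. Surface epithelium markers summed to 1689 and 2891, with 3 of 10 higher (Krt7, Krt8, Krt18) and 0 lower. Their median was 0.48, or -0.20 with the deposited values as they stand, with 6 members above 0 and 4 below. Krt18, a keratin, was 127 at 4 h and 549 at 8 h, 4.33-fold higher, and only its call held on all 4 other scalings. Erythroid markers summed to 253 and 324, but only 3 of 6 measured were above the floor, 2 above 0 and 1 below. The 1 called, Hbb-b2, a beta globin, was 28.1 at 4 h and 121 at 8 h. That is 4.29-fold higher, on probe sets that may read other beta globins too. The part of these cells in the differences above was not tested.

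**Figure D5:**
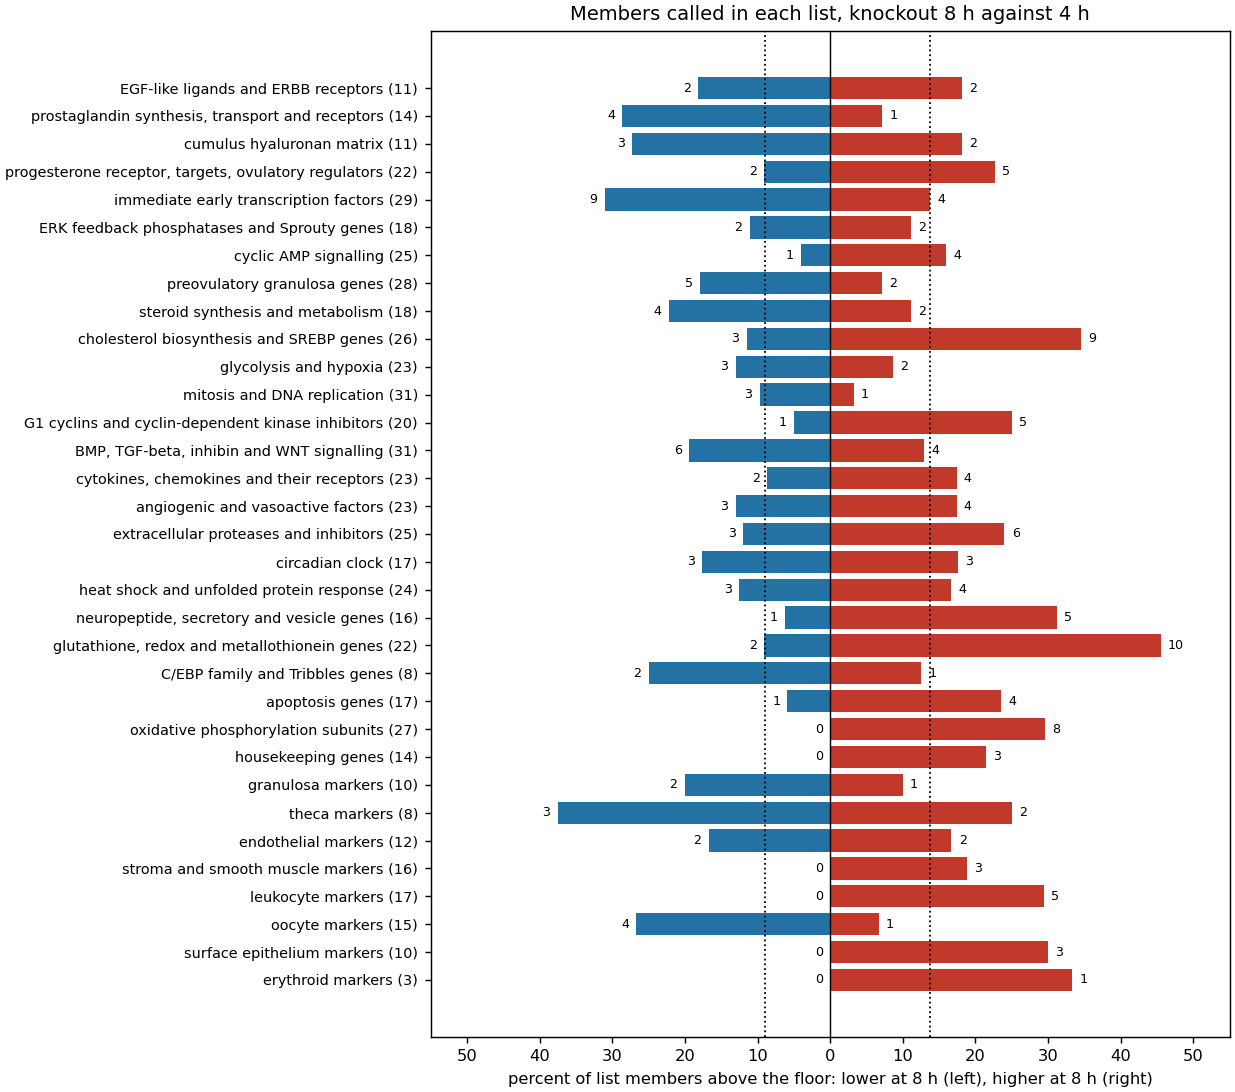
Share (percent) of the members above the floor of each of the 25 gene lists and 8 marker lists that were called lower (blue, to the left) or higher (red, to the right) at 8 h, with the number of members above the floor in brackets, the count called beside each bar and dotted lines at the shares over all genes, 8.93% and 13.8%. Immediate early factors reach furthest past the line on the lower side among the lists of over 20 members and glutathione genes on the higher side.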

How the data were processed

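RNA of granulosa cells was measured on 5 Affymetrix arrays, 1 per group, from 5 ug of total RNA labelled with biotin, per the labels' protocols. The authors' deposited values are whole-number intensities on a linear scale, made with affy and RMA (versions not given), per the submitters' processing notes. No source used here says whether all arrays were processed jointly. Log2 values were quantile-normalized over the 5 arrays (Python 3.11.15, numpy 2.4.6, pandas 2.3.3). Quantile normalization gives every array the same distribution, so a shift of most genes cannot be seen.

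Of 45101 probe sets, 34958 had 1 gene symbol in the platform annotation and were used, 932 had several and 9211 had none listed. Symbols were updated through Entrez identifiers from a RefSeq table of GRCm38.p6, where 34754 identifiers matched, and promoters came from RefSeq on the same build. With 1 array per group there is no test, so a size rule of 2-fold, a floor and agreeing probe sets was used, and rounding to whole numbers makes differences coarse near the floor. Precision is limited by how few arrays there are. The script was tested on simulated data.

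The comparison, the 25 gene lists, the 8 marker lists and the rules were chosen with earlier results of these data known. Genes were named when they were among the 15 largest in each direction, among the 8 in each direction whose smallest probe set difference was largest, among up to 6 called members per list and direction (the 2 largest where none was called), on a fixed list of ovulatory genes, or past 2-fold with disagreeing probe sets. Inha, Foxl2, Pecam1 and Tek were named as defining markers after their values were seen. Alternatives changed the scaling, probe sets, agreement, floor and fold.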

Additional observations from a re-analysis of the deposited data

How the results depend on the processing

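With 1 array per group no replicate could be left out. No paired analysis was possible because each group has 1 array and the labels carry no shared replicate numbers. Against 1895 higher and 1228 lower genes, the deposited values as they stand gave 515 and 5578, a scale on which the 4 h array is the brighter one. Only genes with 2 or more agreeing probe sets gave 751 and 569, a 1.5-fold threshold 3086 and 2340, and a 3-fold threshold 867 and 423. Leaving out genes within a 2-fold range on the other 4 arrays gave 681 and 352, and asking every one of 2 or more probe sets to pass 2-fold and the floor gave 240 and 179, and these 2 alternatives were chosen after seeing the data. The remaining alternatives (median centring, centring on hybridization controls, quantile normalization of both knockout arrays only, the mean of all probe sets, leaving out less specific probe sets, no agreement, agreement above the floor only, no floor and a floor at the 60th percentile) kept both counts within 1.5 times. Of 202 called genes named, 126 kept the call on all 4 other scalings (51 of 117 higher and 75 of 85 lower). The deposited scale favours lower calls, so the shares of higher and lower genes do not compare their sturdiness. With the mean of probe sets 184 kept the call. None changed sign under any alternative run, but the rule left little room for that. A called gene differs by at least 1 on the log2 scale with agreeing probe sets, so their mean cannot reverse. The scalings moved the median gene by less than 1. The sign of a list's median differed on the deposited scale for 19 of 33 lists and on another scaling for 5.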

Other observations

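Some lists had more called members in 1 direction than the naming rule takes. Among the immediate early factors, Fosl2, a subunit of AP-1, was 3270.4 at 4 h and 1183 at 8 h, 2.77-fold lower, and 2875 in the knockout at 24 h. Nr4a1, an orphan nuclear receptor, was 2269 at 4 h and 930.0 at 8 h, 2.44-fold lower, and Egr3 was 1692 at 4 h and 843 at 8 h, 2.01-fold lower. In cholesterol and fatty acid synthesis, Lss, which closes the sterol rings, was 399 at 4 h and 885 at 8 h, 2.22-fold higher. Ebp, a sterol isomerase, was 2.29-fold higher, and Fasn, fatty acid synthase, 2.55-fold higher. None of the calls of Lss, Ebp and Fasn held on all 4 other scalings. Among glutathione and redox genes, Gpx3, a secreted peroxidase, was 303 at 4 h and 1098 at 8 h, 3.63-fold higher, below the 2273 of wild type at 8 h. Hmox1, heme oxygenase, was 82.7 at 4 h and 248 at 8 h. Gstm5 was 2.43-fold higher and Gsr, glutathione reductase, 2.17-fold higher. Sdhc and Cox6c, respiratory chain subunits, were 2.64-fold and 2.22-fold higher, and both stayed within 2-fold over the other 4 arrays. Neither of their calls held on all 4 other scalings.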
